A study of Mus musculus with 4 samples.

Results

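The genes that make serine and pass its carbon to folate were examined in fetal brown adipose tissue (BAT), the heat-producing fat depot. The set holds 10 of the 22298 genes listed: Phgdh, Psat1 and Psph of serine synthesis, Shmt1, Shmt2, Mthfd1, Mthfd2 and Mthfd1l of the folate cycle, the transcription factor Atf4, and Asns, a gene that Atf4 is known to control. They were taken by name, with no threshold on a measured value but with earlier results of these data known, and all 10 passed the filter on low counts. RNA-seq was performed on BAT at E18.5 from C57BL/6 fetuses (C57BL/6J in the study's methods), labelled male, of dams that drank tap water (control, 2 libraries) or 20% (w/v) fructose water (fructose, 2 libraries) through gestation. The labels name no transgene or deletion in either group. The comparison asks what fructose taken by the dam did to expression in the fetal depot. Nothing given says whether the libraries of a group came from different litters or from pooled fetuses, so p-values measure the spread between these libraries, which may be technical.

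Serine is built from the glycolytic intermediate 3-phosphoglycerate in 3 steps run in turn by PHGDH, PSAT1 and PSPH. The SHMT enzymes, SHMT1 in the cytosol and SHMT2 in mitochondria, then split serine into glycine and a one-carbon unit carried on folate. In mitochondria MTHFD2 oxidises that unit and MTHFD1L releases it as formate, and cytosolic MTHFD1 takes formate up again for purine and thymidylate synthesis. Much of this route is known to be switched on by ATF4, which is made when phosphorylation of the initiation factor eIF2alpha slows general translation.

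Of the 10 genes, 4 fell in fructose and 0 rose. Phgdh, the first enzyme of serine synthesis, was 0.652 of its control level, the mitochondrial enzyme Shmt2 was 0.759 and Atf4 was 0.773, while the fall of Mthfd2 rested on 1 control library. Psat1 and Psph, the later steps of serine synthesis, lay within the spread between libraries. These calls were made with edgeR's quasi-likelihood test on all 12888 genes that passed the filter, at an adjusted p-value under 0.05, where 10.7% of genes fell, 15.5% rose and 26.2% passed in either direction. At an unadjusted p-value under 0.05, 5 of the 10 were lower (Asns being the fifth) and 0 higher, beside 17.8% and 21.5% of all genes. DESeq2 called 3 lower (Phgdh, Shmt2 and Atf4) and 0 higher, beside 8.11% and 10.6%. The same 3 were the members under an unadjusted p of 0.05 in DESeq2, and Mthfd2 was not among them. The study's thresholds were a change of more than 1.3-fold at an unadjusted p under 0.05 in DESeq2. Applied here to the edgeR values instead, they gave 3 lower (Phgdh, Shmt2 and Mthfd2) and 0 higher, beside 6.18% and 17.6% of all genes. In 4 of the 10, Phgdh, Shmt2, Mthfd1 and Atf4, both fructose libraries lay under both control libraries, while 65.1% of all genes were without overlap in either direction and 31.6% in this one. Expression differences are given as log2 fold changes of fructose over control, of which 9 of 10 were negative, with a median of -0.27 (interquartile range -0.39 to -0.080) beside 0.0025 (-0.21 to 0.33) over all tested genes. Fold changes over all genes followed transcript length and GC content, and with both trends removed from each library 0 of the 10 passed, 2 were lower at an unadjusted p-value under 0.05, and 3.23% and 11% of all genes were lower by these rules.

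Some properties of the libraries moved with the groups. Total counts were 18542897 to 19224529 in control and 22461298 to 23645147 in fructose. Over 12884 genes the rank correlation of the fold change was 0.52 with transcript length and -0.53 with GC content, given as a description because the genes share the same 4 libraries. Mitochondrially encoded genes took 5.89% and 6.49% of counts in control and 10.8% and 11.2% in fructose. Every library is labelled male, and the study's methods state that male fetuses were used, with sex determined by PCR. Yet the Y-linked genes Uty, Kdm5d, Ddx3y and Eif2s3y summed to 422 and 390 counts in control 1 and 2 but to 0 in each fructose library. Fetal sex and the drink of the dam therefore cannot be told apart in any comparison here. CPM are counts scaled to a common library size after TMM normalization. Brown adipocyte markers, Ucp1 among them, summed to 27039 and 28854 CPM in control and 26370 and 24448 CPM in fructose. Of these 14 markers, 2 were higher and 4 lower. Skeletal muscle markers summed to 192 and 266 CPM in control and 668 and 481 CPM in fructose, with 13 of 13 tested higher. Erythroid markers summed to 19205 and 15295 CPM in control and 11768 and 12142 CPM in fructose, with 5 of 9 tested lower. Endothelial markers summed to 1689 and 1646 CPM in control and 1476 and 1553 CPM in fructose (2 lower of 8). Summed markers of dividing cells ran from 172 to 201 CPM (1 higher of 12). Those of macrophages ran from 193 to 255 CPM (1 higher and 2 lower of 9). Those of Schwann cells and nerve ran from 162 to 178 CPM (0 of 7 called with edgeR). Liver markers summed to at most 1.02 CPM, with 6 of 10 at 0 in every library. The part of these differences in the results on serine and folate genes was not tested, and in whole tissue fewer cells of a type and less RNA per cell cannot be told apart.

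**Figure D1:**
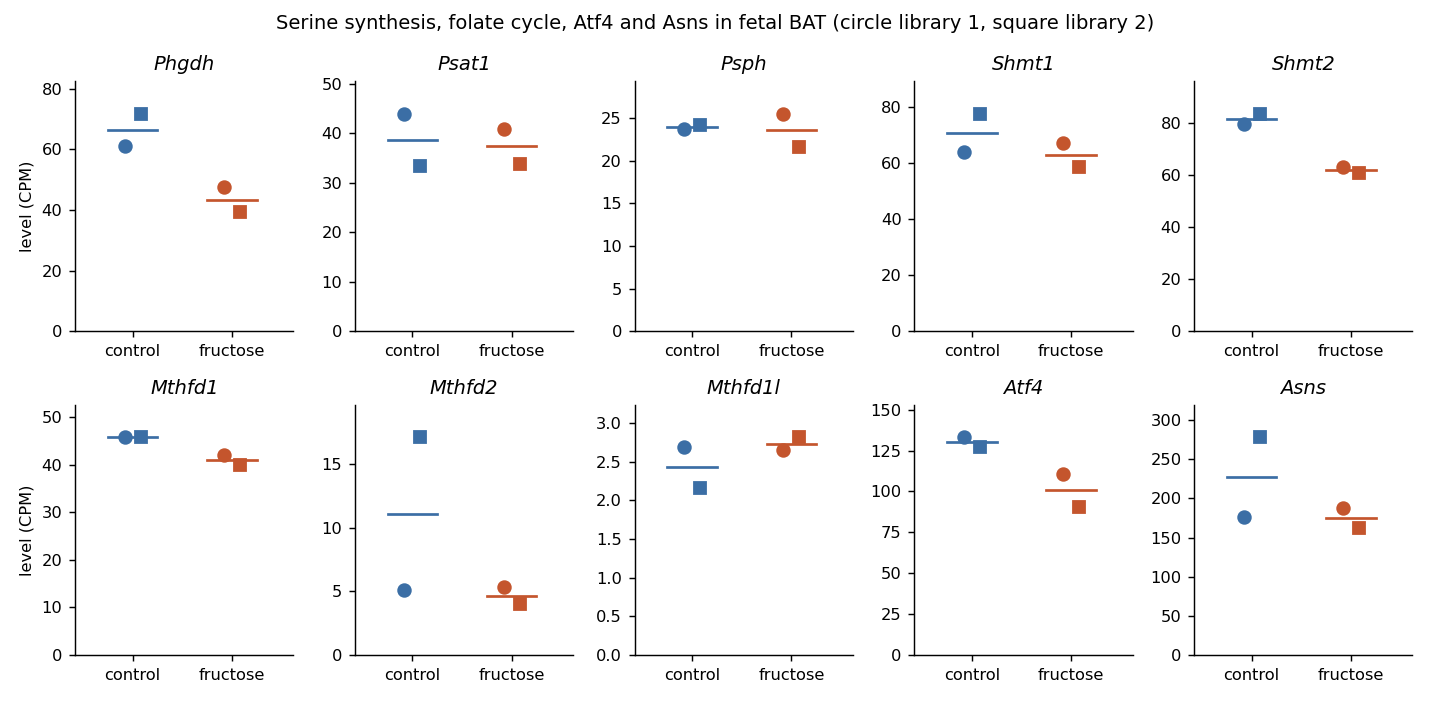
Level of each of the 10 serine and folate genes in CPM after TMM normalization, on linear axes that start at 0, with a circle for library 1, a square for library 2 and a line at the mean of each group. In Phgdh, Shmt2, Mthfd1 and Atf4 both fructose points lie under both control points, and in Mthfd2 and Asns control 2 stands apart at 17.1 and 278 CPM.

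Compared per kilobase of transcript, the levels of the 10 genes spread widely. Asns was the highest, at a mean of 99.9 CPM per kilobase over the 4 libraries, followed by Atf4 at 66.9. Shmt2 (31.4), Phgdh (29.0) and Shmt1 (23.4) followed, and in this order each overlapped the next over the libraries. Psat1 (14.5), Psph (13.7) and Mthfd1 (13.4) formed the next tier and could not be ordered beyond their spread. Mthfd2 stood at 3.77 and Mthfd1l was the lowest at 0.700 CPM per kilobase, each apart from its neighbours in every library.

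The promoters of 4 genes, Phgdh and Shmt2 whose falls held with each library left out and Mthfd2 and Asns with the largest gap between control libraries, are given to show which of them carries a letter match to the response element of ATF4 and its C/EBP partners. Each is the coding strand from 250 bases before to 50 bases after the start given by RefSeq on GRCm38.p6, at chr3:98339920-98340219 (Phgdh), chr10:127522395-127522694 (Shmt2), chr6:83317555-83317854 (Mthfd2) and chr6:7693160-7693459 (Asns), all on the minus strand, with capitals marking a match to TGATGNAA on either strand.
Phgdh: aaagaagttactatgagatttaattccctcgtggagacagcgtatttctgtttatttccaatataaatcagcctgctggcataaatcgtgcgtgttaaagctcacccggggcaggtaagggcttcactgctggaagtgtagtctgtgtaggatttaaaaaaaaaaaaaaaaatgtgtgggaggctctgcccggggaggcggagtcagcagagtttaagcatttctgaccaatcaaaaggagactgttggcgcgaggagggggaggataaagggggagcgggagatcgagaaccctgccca
Shmt2: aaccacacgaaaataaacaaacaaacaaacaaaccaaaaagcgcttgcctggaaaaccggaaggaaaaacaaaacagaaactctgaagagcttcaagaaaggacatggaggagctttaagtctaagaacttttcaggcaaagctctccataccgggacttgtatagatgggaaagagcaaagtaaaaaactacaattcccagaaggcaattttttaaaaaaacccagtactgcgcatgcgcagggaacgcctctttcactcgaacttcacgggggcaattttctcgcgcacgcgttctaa
Mthfd2: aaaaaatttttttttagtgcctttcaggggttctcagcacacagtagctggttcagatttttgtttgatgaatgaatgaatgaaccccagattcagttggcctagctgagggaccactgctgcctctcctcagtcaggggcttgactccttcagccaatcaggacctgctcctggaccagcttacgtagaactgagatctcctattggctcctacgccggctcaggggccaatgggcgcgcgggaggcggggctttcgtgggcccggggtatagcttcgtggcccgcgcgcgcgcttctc
Asns: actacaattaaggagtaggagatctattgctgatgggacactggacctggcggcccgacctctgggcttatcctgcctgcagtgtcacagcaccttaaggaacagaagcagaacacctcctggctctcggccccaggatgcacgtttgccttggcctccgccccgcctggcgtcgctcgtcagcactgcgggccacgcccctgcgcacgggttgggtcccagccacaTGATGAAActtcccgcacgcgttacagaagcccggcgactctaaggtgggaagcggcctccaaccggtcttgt
The match in Asns began 23 bases upstream of the start, at chr6:7693225-7693232. RefSeq gave a promoter for all 10 genes, and TGATGNAA was present in 1 of them, Asns, against 1304 of 32851 promoters (3.97%) of the whole table. The E-box CACGTG, also searched on both strands, was in 0 of the 10 and in 2349 of 32851 (7.15%). Absence says only that these letters are not in the window.

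In serine synthesis Phgdh passed the test, while Psat1 and Psph did not, and the difference between them was not tested. Phgdh (chr3:98313170-98339990, minus strand of GRCm38) was at 61.1 and 71.8 CPM in control and 47.4 and 39.2 CPM in fructose. Both fructose libraries lay under both control libraries. Group means were 66.4 ± 7.60 (control) and 43.3 ± 5.84 CPM (fructose, ± SD, n = 2 each), a log2 fold change of -0.62 (SE 0.11, 95% interval -0.86 to -0.37, edgeR adjusted p = 0.0028). Leaving out any 1 library gave -0.76 to -0.48, called each time. Its transcript has 1893 bases and 57.2% GC, the latter above 85.6% of tested genes, and with both trends removed the change was -0.35 (adjusted p = 0.074). A processed pseudogene of Phgdh is annotated on chromosome 7, and how reads matching both were counted is not given in the sources used here.

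Psat1, the aminotransferase of the next step (chr19:15904678-15947337, minus strand), was at 44.0 and 33.4 CPM in control and 40.9 and 33.9 CPM in fructose. The groups overlapped and the libraries of a group differed more than the group means did, with a log2 fold change of -0.053 (SE 0.13, 95% interval -0.34 to 0.24, edgeR adjusted p = 0.80). The fold change turned to 0.0060 with scaling by library size only, and leaving out a library gave -0.24 to 0.16. Psph, the phosphatase that releases serine (chr5:129765558-129787449, minus strand), was at 23.7 and 24.2 CPM in control and 25.5 and 21.6 CPM in fructose, so both control libraries lay between the fructose libraries. Its log2 fold change was -0.023 (SE 0.12, 95% interval -0.28 to 0.23, edgeR adjusted p = 0.91), and it was above 0 with scaling by library size only and with either trend removed. Of its exonic bases 10.4% are shared with Cct6a on the opposite strand, which makes its count uncertain because the treatment of strand is not given in the sources used here.

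The study's primer pair for Psat1 is shown because it fixes which part of the transcript a qRT-PCR with it reads. Outside its primer list, the paper's text and legends do not name Psat1, so no value is set beside these libraries. Matched to the annotated transcripts, the listed forward primer lies on the antisense strand at chr19:15906962-15906981 and the listed reverse primer on the sense strand at chr19:15907042-15907061, both in exon 8 of 9 of a coding transcript, with a product of 100 bases.
Psat1 listed forward: TACCGCCTTGTCAAGAAACC
Psat1 listed reverse: AGTGGAGCGCCAGAATAGAA
The pair therefore sits within 1 exon, and no count of that exon alone was analysed here.

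Of the serine hydroxymethyltransferases, the mitochondrial form fell and the cytosolic form did not pass the test. Shmt2 (chr10:127517123-127522444, minus strand) was at 79.8 and 83.8 CPM in control and 63.3 and 60.8 CPM in fructose. The groups did not overlap, and the gap between them was wider than the spread within either. Group means were 81.8 ± 2.79 (control) and 62.1 ± 1.76 CPM (fructose, ± SD, n = 2 each), a log2 fold change of -0.40 (SE 0.08, 95% interval -0.58 to -0.22, edgeR adjusted p = 0.0053). The call held with each library left out (-0.44 to -0.36). With both trends removed the change was -0.17 (adjusted p = 0.227), for a transcript whose GC content of 57.4% is above that of 86.3% of tested genes.

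Shmt1 (chr11:60788104-60811718, minus strand) was at 64.1 and 77.6 CPM in control and 67.0 and 58.5 CPM in fructose. Fructose 1 lay between the control libraries, and the log2 fold change was -0.18 (SE 0.11, 95% interval -0.41 to 0.056, edgeR adjusted p = 0.24). Without control 1 it was -0.31 and passed (adjusted p = 0.013). The log2 ratio of Shmt2 to Shmt1, each level per kilobase, was 0.64 and 0.43 in control and 0.24 and 0.38 in fructose. The ratio was lower in both fructose libraries, by -0.23 on the log2 scale, with an exact two-sided permutation p of 0.333, the smallest that 2 libraries against 2 allow (0.5 after adjustment over the 3 ratios compared). The different outcome of the test for the 2 forms is thus not itself shown to be a difference between them.

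In the remaining folate steps the values were mixed. Mthfd1, the cytosolic enzyme that joins formate to folate (chr12:76255298-76319803, plus strand), was at 45.7 and 45.7 CPM in control and 41.9 and 39.8 CPM in fructose. Its groups did not overlap, but the log2 fold change of -0.16 (SE 0.09, 95% interval -0.35 to 0.031) did not pass (edgeR adjusted p = 0.20). Mthfd1l, the mitochondrial formate-releasing enzyme (chr10:3973118-4167081, plus strand), was scarce, at 2.69 and 2.16 CPM in control and 2.65 and 2.82 CPM in fructose, and its log2 fold change was 0.17 (SE 0.27, 95% interval -0.42 to 0.76, edgeR adjusted p = 0.68). It was the only one of the 10 with a positive value. Mthfd1l per unit of Mthfd1 was 0.0518 and 0.0416 in control and 0.0556 and 0.0622 in fructose, a log2 difference of 0.34 (exact permutation p = 0.333).

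Mthfd2, the mitochondrial dehydrogenase of the route (chr6:83305691-83325908, minus strand), was set by a single library. It was at 5.12 and 17.1 CPM in control, from 97 and 308 counts, and at 5.31 and 3.96 CPM in fructose, from 120 and 97 counts. Control 1 lay between the fructose libraries, so the groups overlapped, and only control 2 was high. Group means were 11.1 ± 8.46 (control) and 4.63 ± 0.952 CPM (fructose, ± SD, n = 2 each), and edgeR gave a log2 fold change of -1.26 (SE 0.40, 95% interval -2.14 to -0.37, adjusted p = 0.039). Without control 2 it was -0.15 (adjusted p = 0.73), and DESeq2 with all libraries gave an adjusted p of 0.309. The gap of control 2 over control 1 was 1.73 on the log2 scale, rank 39 of 12888 genes. Mthfd2 per unit of Mthfd1 was 0.174 and 0.581 in control and 0.197 and 0.155 in fructose, a log2 difference of -0.87 (exact permutation p = 0.667) that became 0.0027 without control 2.

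**Figure D2:**
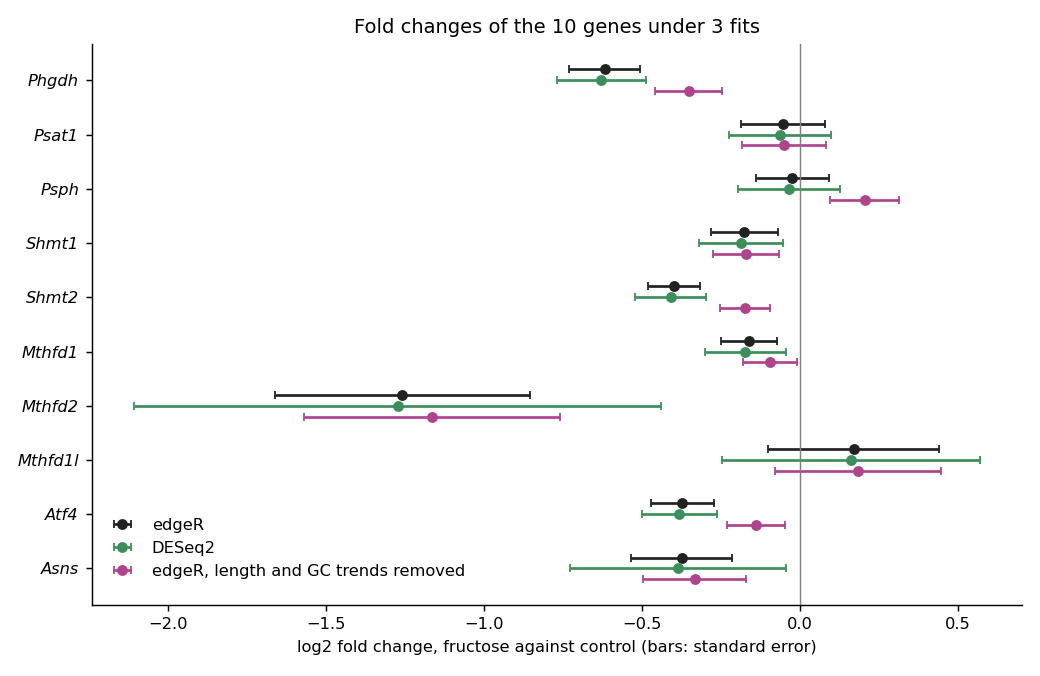
Log2 fold change of fructose over control for the 10 genes (points, with bars of 1 standard error) from edgeR, DESeq2 and edgeR with length and GC trends removed. Removing the trends moves Phgdh from -0.62 to -0.35 and Shmt2 from -0.40 to -0.17, and the widest bars are those of Mthfd2 in DESeq2.

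Atf4 (chr15:80255184-80257541, plus strand), the stress-response transcription factor, was at 133 and 127 CPM in control and 111 and 90.5 CPM in fructose. Both fructose libraries were under both control libraries, and the fructose libraries were farther from each other than the control libraries were. Group means were 130.2 ± 4.05 (control) and 101 ± 14.4 CPM (fructose, ± SD, n = 2 each), a log2 fold change of -0.37 (SE 0.10, 95% interval -0.59 to -0.15, edgeR adjusted p = 0.018). Without fructose 2 it was -0.23 (adjusted p = 0.24), and with both trends removed -0.14 (adjusted p = 0.42). ATF4 is known to be regulated mainly at translation, so these values concern its transcript alone.

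Asns, which encodes asparagine synthetase (chr6:7675169-7693254, minus strand) and holds the promoter match to TGATGNAA, was at 177 and 278 CPM in control and 188 and 163 CPM in fructose. Fructose 1 lay between the control libraries, so the groups overlapped. The log2 fold change was -0.37 (SE 0.16, 95% interval -0.73 to -0.023) and did not pass over all genes (edgeR adjusted p = 0.107). As for Mthfd2, control 2 was the high library. Without it the change was -0.010 (adjusted p = 0.955), and without control 1 it was -0.67. With no filter on low counts the adjusted p was 0.020.

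Within the groups, control 2 and fructose 2 held many of the extremes. Of the 10 genes, 5 were highest in control 2 (26.9% of all tested genes) and 8 were lowest in fructose 2 (27.0%). In fructose, 9 of 10 were lower in library 2 than in library 1 (49.7% of all genes), with a median log2 ratio of -0.22. In control, 6 of 10 were higher in library 2 than in library 1 (48.4%). Asns (0.65) followed Mthfd2 in the size of the control gap, rank 373 of 12888 genes. The number of members called lower was 6 without control 1, 3 without control 2, 5 without fructose 1 and 3 without fructose 2, beside 12.8%, 11.2%, 6.31% and 3.71% of all tested genes.

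**Figure D3:**
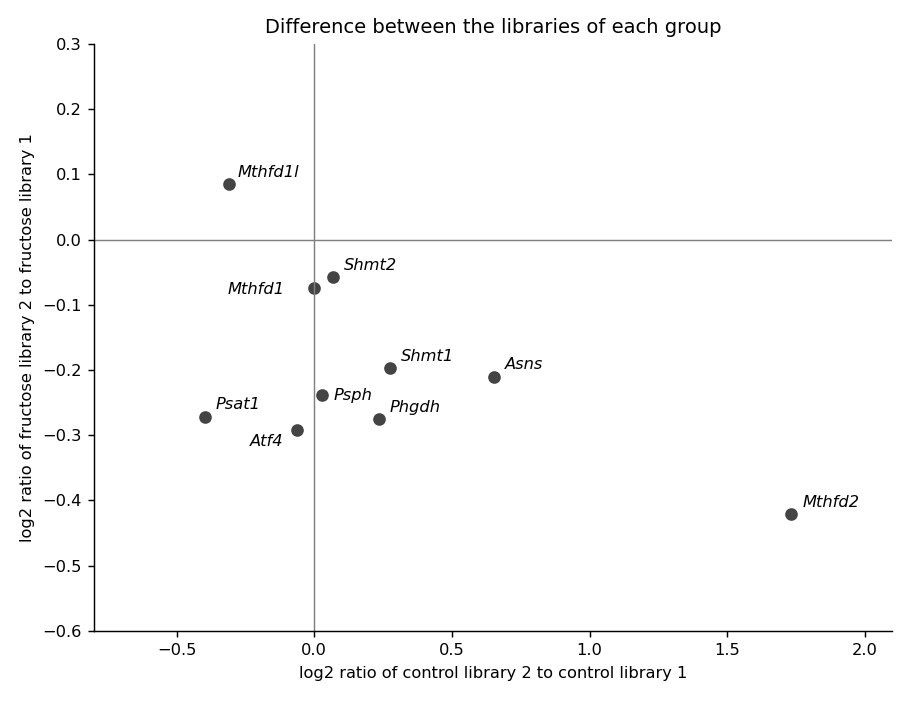
Each point is 1 of the 10 genes, at its log2 ratio of control library 2 to 1 (horizontal axis) and of fructose library 2 to 1 (vertical axis). Mthfd2 (1.73) and Asns (0.65) lie farthest to the right, and 9 of 10 genes lie below 0 on the vertical axis.

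The genes around this route were described from lists chosen by general knowledge, with earlier results of these data known. Of 123 listed genes 111 were tested, 10 rose and 16 fell, with a median log2 fold change of -0.047. Over all tested genes 15.5% rose, 10.7% fell and 26.2% passed in either direction. These shares are the background for this count and for each list below. Genes that move serine and glycine or consume them (21 tested of 24) had 4 higher and 1 lower, with a median of 0.028. Sfxn1, the mitochondrial serine transporter, rose from 78.3 and 85.7 CPM to 105 and 97.9 CPM (log2 fold change 0.31, SE 0.09, edgeR adjusted p = 0.021). Slc38a2, a neutral amino acid transporter, was at 28.9 and 43.3 CPM in control and 50.4 and 51.4 CPM in fructose (0.50, SE 0.15, edgeR adjusted p = 0.026). Both were thus higher in each fructose library than in either control library, but without control 1 neither passed, Sfxn1 at 0.24 (edgeR adjusted p = 0.060) and Slc38a2 at 0.23 (edgeR adjusted p = 0.12). Dld, a subunit shared by the glycine cleavage system and other mitochondrial dehydrogenases, rose by 0.36 (edgeR adjusted p = 0.026), and Gatm, the first enzyme of creatine synthesis, rose by 1.03 from a low level of 1.32 and 1.83 CPM to 3.67 and 2.78 CPM (edgeR adjusted p = 0.028, DESeq2 adjusted p = 0.090). With the GC trend removed Dld was at -0.20. With both trends removed none of these 4 passed in edgeR, with Sfxn1 at 0.24 (adjusted p = 0.13), Slc38a2 at 0.13 (0.68), Dld at -0.039 (0.85) and Gatm at 0.82 (0.14). Alas2, the erythroid enzyme that joins glycine to succinyl-CoA for heme, was the gene that fell, from 186 and 137 CPM to 115 and 126 CPM (-0.43, edgeR adjusted p = 0.024), and it is also counted among the erythroid markers, whose sum was lower in fructose. Without control 1 it was at -0.19 (edgeR adjusted p = 0.13), and with both trends removed at -0.24 (edgeR adjusted p = 0.30). Its housekeeping counterpart Alas1, the highest of the list, was at 1947 and 1687 CPM in control and 1626 and 1505 CPM in fructose (-0.22, edgeR adjusted p = 0.13).

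Of the other folate genes (14 tested of 16), 1 fell and 0 rose, with a median of -0.10. Slc19a1, the reduced folate carrier and the gene of this list with the highest level, was at 124 and 117 CPM in control and 97.3 and 92.8 CPM in fructose (-0.35, SE 0.08, edgeR adjusted p = 0.0096), and at -0.22 (adjusted p = 0.126) with both trends removed. The methionine cycle, which takes methyl groups from folate (13 tested of 16), had 1 higher and 0 lower, with a median of 0.12. Mat2a, which makes S-adenosylmethionine, rose from 85.7 and 101 CPM to 122 and 113 CPM (0.33, SE 0.10, edgeR adjusted p = 0.025), and was at -0.042 with the GC trend removed. Ahcyl1, a relative of adenosylhomocysteinase and the highest of that list per length, differed by 0.024 (edgeR adjusted p = 0.86).

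Purine synthesis consumes folate-bound carbon, and all 13 listed genes were tested, with 3 lower, 1 higher and a median of -0.16. Adssl1, an adenylosuccinate synthase form, fell from 80.9 and 82.7 CPM to 63.0 and 61.8 CPM (-0.39, SE 0.08, edgeR adjusted p = 0.0053). Impdh2 of guanine nucleotide synthesis (-0.34, edgeR adjusted p = 0.015) and Paics of the shared pathway (-0.27, edgeR adjusted p = 0.035) fell as well. Gmps, the step after IMPDH, rose from 40.4 and 38.0 CPM to 54.0 and 48.9 CPM (0.39, edgeR adjusted p = 0.011). With both trends removed Gmps was called lower, at -0.50 (edgeR adjusted p = 0.019), so its direction depended on that step, and none of the 3 that fell passed, with Adssl1 at -0.14 (adjusted p = 0.31), Impdh2 at -0.14 (0.39) and Paics at -0.27 (0.081). DESeq2 gave Paics an adjusted p of 0.051. Impdh1, the highest of the list, was at 812 to 1037 CPM (-0.16, edgeR adjusted p = 0.25).

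Of other known ATF4 targets (24 tested of 28), 6 fell and 1 rose, with a median of -0.17. Pck2, the mitochondrial PEP carboxykinase, was at 131 and 132 CPM in control and 106 and 82.8 CPM in fructose (-0.48, SE 0.11, edgeR adjusted p = 0.0073). It stayed called in 11 of 11 alternatives, with -0.56 (adjusted p = 0.013) when both trends were removed, but not without fructose 2 (-0.31, adjusted p = 0.092). Cebpb, a partner of ATF4, fell from 124 and 144 CPM to 108 and 89.6 CPM (-0.44, edgeR adjusted p = 0.011). The translation repressor Eif4ebp1 fell by 0.35 on the log2 scale (edgeR adjusted p = 0.011), and Aldh18a1 of proline synthesis fell by 0.51 (edgeR adjusted p = 0.026). Cebpg, another partner of ATF4, moved the other way, from 26.6 and 24.0 CPM to 33.2 and 35.6 CPM (0.44, edgeR adjusted p = 0.0098). With both trends removed none of these 4 passed in edgeR: Cebpb was at -0.048 (adjusted p = 0.82), Cebpg at 0.040 (0.86), Eif4ebp1 at -0.29 (0.056) and Aldh18a1 at -0.45 (0.090). Atf5, the highest of the list per length, was at 156 and 236 CPM in control and 170 and 119 CPM in fructose (-0.44, edgeR adjusted p = 0.092), with control 2 high as in Mthfd2 and Asns, and was at -0.11 without control 2. Without fructose 2, 1 of the 24 passed in edgeR. TGATGNAA was present in the promoters of 11 of the 24 listed targets, tested or not, that had a RefSeq promoter, Pck2 among them.

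The cytosolic aminoacyl-tRNA synthetases, which charge tRNAs and include many known ATF4 targets, had 5 lower and 2 higher of 20, with a median of -0.12. The 5 that fell were Vars (-0.34), Farsa (-0.32), Qars (-0.30), Sars (-0.29) and Kars (-0.28). Dars rose from 24.9 and 21.4 CPM to 30.0 and 35.9 CPM (0.51, SE 0.12, edgeR adjusted p = 0.010), and Eprs rose by 0.30 (edgeR adjusted p = 0.037). With the GC trend removed Dars was at -0.013, and DESeq2 called neither Farsa (adjusted p = 0.079) nor Eprs (adjusted p = 0.12). Farsa and Eprs were named after their values were seen. Of the 20, 12 were highest in control 2 and 14 lowest in fructose 2. Gars, the highest per length, was at 262 and 340 CPM in control and 283 and 252 CPM in fructose (-0.17, edgeR adjusted p = 0.29), and was at 0.027 without control 2. With both trends removed 0 of the 20 passed in edgeR, where 3.38% of all tested genes were higher and 3.23% lower. The median of the 20 ran from -0.18 to -0.038 with each library left out in turn.

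Upstream of Atf4, 1 of 6 genes of eIF2alpha, its kinases and its phosphatase was called. The list had a median of 0.14, with 5 positive values and 1 negative. Eif2ak2, the kinase activated by double-stranded RNA, was at 3.75 and 2.77 CPM in control and 6.85 and 7.55 CPM in fructose. Both fructose libraries were above both control libraries, with a log2 fold change of 1.14 (SE 0.22, edgeR adjusted p = 0.0036), and it was called in 11 of 11 alternatives and with each library left out. With both trends removed it was at 0.82 (adjusted p = 0.036). Ppp1r15b, the constitutive phosphatase subunit and the highest of the list, differed by 0.072 (edgeR adjusted p = 0.62).

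**Figure D4:**
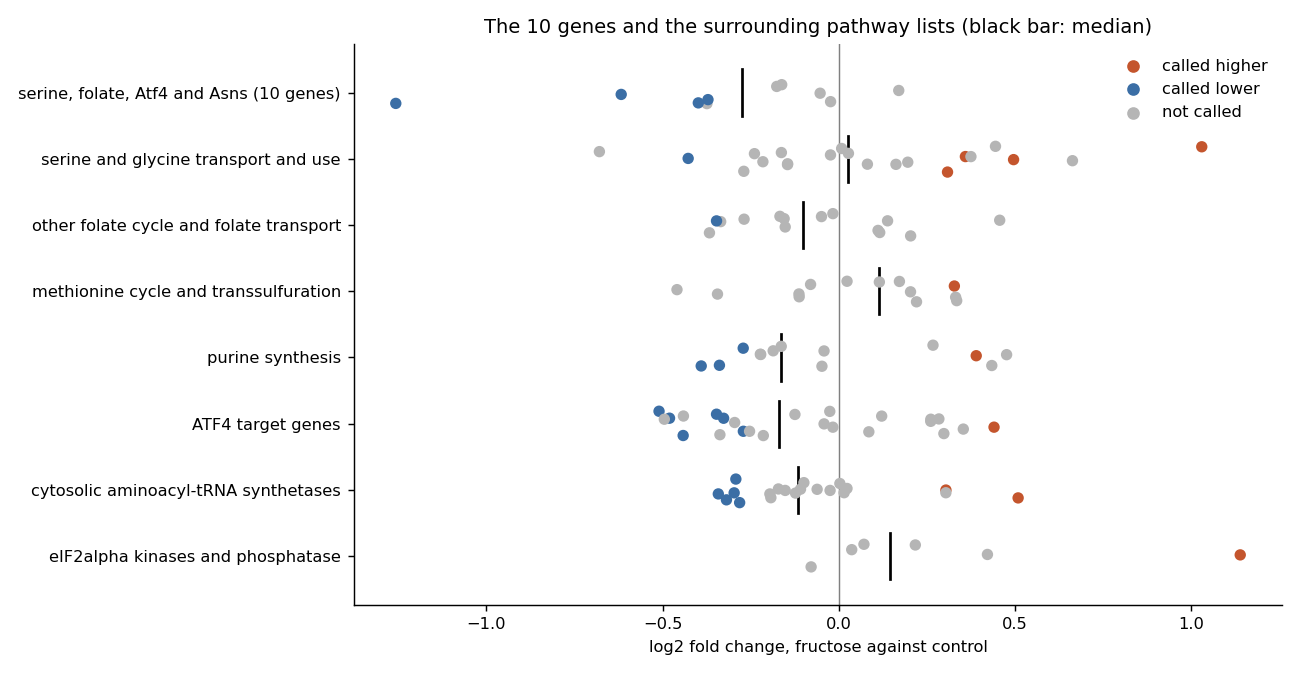
Log2 fold change of fructose over control for every tested gene (1 point each) in the serine, folate, Atf4 and Asns set and in the 7 lists around it, with a black bar at each median and colours for genes called higher or lower at an adjusted p-value under 0.05. The set of 10 has its median at -0.27 and other ATF4 targets at -0.17, and the farthest point on the right is Eif2ak2 at 1.14.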

How the data were processed

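RNA-seq of fetal BAT was analysed in 4 libraries. Per the paper's methods and the labels, the authors filtered reads with fastp, mapped them to mm10 with Bowtie2 (2.0.0.5) and TopHat2 (2.0.0), assembled transcripts with StringTie (2.2.0), merged the assemblies with Cuffmerge and took gene counts from the merged file. The deposited tables hold raw, whole-number counts of reads for each gene, with no normalization. The tool that did this counting, its use of strand, its handling of reads shared by paralogs and the annotation release are not given in the sources used here. The single-library tables and the joint table differed in 0 values.

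Ensembl identifiers were given symbols, coordinates, lengths and GC content from GENCODE M21 (GRCm38), and 43 of 22298 had no match. Ddit3 was found under more than 1 identifier, of which the one with counts was used. Promoters came from RefSeq (GRCm38.p6).

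Genes kept by filterByExpr were tested with edgeR 4.0.16 (quasi-likelihood, TMM, two-sided, no covariate, Benjamini-Hochberg over all of them) in R 4.3.3. The study's own test was DESeq2. Precision depends on the counts and on the spread between libraries. For scale, 3 counts stand for 0.127 to 0.162 CPM of the total counts, a level that no filter used. Intervals are 95% and cover these libraries only.

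The members and lists were chosen with earlier results of these data known. Named genes are all members, in each list up to 5 called genes of lowest p whose groups do not overlap, and its highest gene per length. Alternatives were DESeq2 1.42.0, its size factors, library size only, sizes without mitochondrially encoded genes, no filter, a minimum of 10 counts in all 4 libraries, a replicate block, length and GC trends removed (lowess, span 0.3, singly and together, and together with the block), and each library left out in turn, where the lone library is assumed to vary like the other group. The tests were checked on counts simulated at a common dispersion, with 2-fold changes in 200 genes. There edgeR recovered 91.5% of them with 7 false calls, and DESeq2 79% with 3. Calls of smaller changes, or with length and GC trends present, were not checked in this way.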

Additional observations from a re-analysis of the deposited data

How the results depend on the processing

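With 2 libraries a group, values that rest on 1 library cannot be checked further, and the depth limits Mthfd1l and Mthfd2 most. For the 10 genes, 87 of 110 values under the alternatives kept direction and side of the threshold, 15 lost the call, 2 gained it (Asns, with no filter and with the replicate block) and 6 changed sign, all in Psat1 or Psph. For the named genes of the lists the numbers were 231, 78, 2 and 19 of 330. The members' median ran from -0.35 to -0.15. Library sizes without mitochondrially encoded genes gave the calls of TMM on all genes. TMM was computed after that change on the same genes, which all but fixed this outcome. It therefore cannot test an effect of the mitochondrial share, although it is counted among the alternatives. Where a value changed, the cause was not tested.

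The labels do not pair the libraries, and the correlation of same-numbered deviations was -0.052. With the replicate block, 2117 genes were higher and 1441 lower, 5 of the 10 members were lower (Asns adjusted p = 0.025), and 2 other folate genes were called.

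With library size only, 17.4% of all tested genes were higher and 6.67% (859) lower, and 2 eIF2alpha genes were called. In that fit Psat1 was 0.0060 and Psph 0.037, and the median of all genes was 0.063. With no filter, 2 other folate, 2 methionine and 2 eIF2alpha genes were called, beside 13.6% of all genes higher and 8.95% lower.

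With the length trend removed, 1114 genes were higher and 946 lower (7.34% of genes tested), beside 2 of 10 members lower, and 1 purine gene, 3 ATF4 targets and 4 synthetases were called. Log2 fold changes were 0.14 for Psph, -0.056 for Ahcyl1, -0.032 for Gmps and -0.18 for Ppp1r15b. With the GC trend removed, 968 genes were higher and 922 lower (7.15%), beside 1 of 10 members lower, a share near that of all genes, and 0 serine and glycine, 2 methionine, 2 purine, 2 ATF4 target, 1 synthetase and 2 eIF2alpha genes were called. Values were 0.076 for Psph, -0.20 for Dld, -0.042 for Mat2a, -0.11 for Ahcyl1, -0.30 for Gmps, 0.038 for Impdh1 and -0.013 for Dars.

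With both removed, 435 genes were higher and 416 lower, 0 members were called (2 at an unadjusted p under 0.05 in edgeR), and 0 serine and glycine, 0 other folate, 0 methionine, 1 purine, 1 ATF4 target, 0 synthetase and 2 eIF2alpha genes were called. Values were 0.21 for Psph, -0.039 for Dld, -0.12 for Ahcyl1, -0.50 for Gmps, 0.059 for Impdh1 and -0.15 for Ppp1r15b. The replicate block with both trends removed gave 509 higher, 440 lower, 0 members (3 at an unadjusted p under 0.05), 0 serine and glycine, 0 other folate, 0 methionine, 1 purine, 2 ATF4 target, 0 synthetase and 2 eIF2alpha genes, with 0.20 for Psph, -0.038 for Dld, -0.12 for Ahcyl1, -0.51 for Gmps, 0.056 for Impdh1 and -0.15 for Ppp1r15b.

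Leaving out 1 library gave 1207 to 2225 genes higher and 485 to 1700 lower, both lowest without fructose 2, and 3 to 6 members lower. Without fructose 1, 825 genes were lower. Without control 1, control 2, fructose 1 and fructose 2 in turn, the numbers called were 3, 6, 1 and 5 for serine and glycine, 3, 2, 1 and 0 for other folate, 0, 3, 0 and 1 for methionine, 6, 4, 2 and 3 for purine, 9, 6, 8 and 1 for ATF4 targets, 9, 4, 4 and 0 for synthetases and 2, 1, 1 and 1 for eIF2alpha genes. Of 120 such values of the named genes of the lists, 37 lost the call and 4 changed sign. Psat1 ran from -0.24 to 0.16, Psph from -0.14 to 0.095, Ahcyl1 from -0.014 to 0.060, Ppp1r15b from -0.068 to 0.22 and Gars from -0.35 to 0.027. The log2 ratio difference ran from -0.33 to -0.12 for Shmt2 to Shmt1, 0.18 to 0.50 for Mthfd1l to Mthfd1 and -1.74 to 0.0027 for Mthfd2 to Mthfd1.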
